A study of Mus musculus with 18 samples.

Results

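The account concerns 10 genes of the cell cycle in resting CD8 T cells, taken by name from the 46983 genes of the table: Mki67, Top2a, Stmn1, Pcna, Tyms, Rrm2, Mcm3, Ccnb2, Ccnd2 and Cdkn1b. All 10 were found under these symbols. RNA was sequenced from mouse CD8 T cells sorted by surface CD44 into naive cells (low) and memory cells (high). The wild-type mice (C57BL/6J) gave 4 naive and 4 memory libraries, and the mice of genotype Dock2-Hsd/Hsd (Dock2-/-) gave 5 naive and 5 memory libraries, called Dock2-deficient here. Dock2 switches on the small GTPase Rac in white blood cells and is needed for their movement. No treatment was given, and neither age nor the number of animals behind a library was stated, so a p-value here speaks of the spread among libraries, part of which may be technical. C57BL/6J is the strain given for every library, but C57L6NHsd appears in the description of each Dock2-deficient one. Xist was above 1000 in all 8 wild-type libraries and in 1 of 5 libraries of each Dock2-deficient group, and below 10 in the other 4 of each. Genotype and substrain therefore cannot be told apart. Libraries with high Xist occur in both genotypes but make up all of wild type and few of the Dock2-deficient ones, and the part of sex in the genotype comparisons was not tested.

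Values are normalized expected counts, that is, read counts estimated by RSEM which the authors had scaled between libraries. A library held 2215987 to 8257768 expected reads, of which 37.0% to 69.4% fell on the ribosomal RNA gene Rn18s-rs5, so 850659 to 2830470 reads were left for all other genes. A read was worth 0.512 to 1.81 units, so that a value near 1 stands for about a read. The Dock2 gene itself was read in every library, at 288 to 514 in wild-type naive, 400 to 844 in wild-type memory, 171 to 373 in Dock2-deficient naive and 61.0 to 280 in Dock2-deficient memory libraries. The genotypes overlapped in naive cells and did not overlap in memory cells. The summed level of 5 CD8 T cell markers (Cd8a, Cd8b1, Cd3d, Cd3e, Cd3g) was 5195 to 11558. The lists of other cell types summed to 23.1 to 57.5 (5 B cell markers), 12.4 to 160 (4 plasma cell markers), 6.99 to 57.7 (5 immature thymocyte markers), 0 to 48.9 (6 myeloid markers), 0 to 340 (6 erythroid markers), 0 to 35.9 (4 natural killer cell markers) and 0 to 28.0 (4 CD4 T cell markers). Of these markers only Sdc1 of the plasma cell list and Rag1 of the thymocyte list were at 0 in all 18 libraries. In an earlier analysis of these data 2 memory libraries lay apart from the others, number 4 of wild type and number 5 of Dock2-deficient mice, and results are also given without both.

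Most T cells in a mouse that is not being immunised rest outside the cell cycle, held there by inhibitors of cyclin-dependent kinases such as p27 and by factors that repress cell cycle genes. A cell that enters the cycle first assembles D-type cyclins with their kinases in G1, then makes nucleotides and copies its DNA in S phase, and then condenses and separates its chromosomes in G2 and mitosis. CD8 T cells with high CD44 include cells that turn over slowly under cytokines, whereas naive cells divide rarely. In bulk RNA, fewer cycling cells and less RNA in each cycling cell cannot be told apart.

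Genes of G2 and mitosis share short promoter elements, so the promoters were read for those of the 10 genes that RefSeq (GRCm38.p6) listed, which were 8; Stmn1 and Ccnd2 were not matched. Each window is the 250 bases before the RefSeq start, searched on both strands for the letters TTTGAA (the cell cycle homology region, or CHR, to which repressor and activator complexes of G2 and mitosis genes bind), for CCAAT (the box bound by NF-Y) and for TTTGGCGC, TTTCCCGC, TTTGCCGC or TTTCGCGC (forms of the E2F site). None of these matches overlapped another kind in the sequences printed. TTTGAA occurred in 3 of the 8 windows, those of Mki67, Top2a and Ccnb2, and in 16% of 32851 promoters. CCAAT occurred in 7 of 8, all but Tyms, and in 33.8% of all promoters, while the E2F letters occurred in 0 of 8 and in 1.86% of all. A match of letters is a description and not a site, and no match says only that these letters are not in this window. The sequences of the 3 genes with TTTGAA and of Cdkn1b, the inhibitor among the 10, are given 5′ to 3′ in the direction of the gene, with TTTGAA and CCAAT (or their reverse complements TTCAAA and ATTGG) in capitals. They lie at chr7:135716380-135716629 (Mki67, minus strand), chr11:99024190-99024439 (Top2a, minus strand), chr9:70421555-70421804 (Ccnb2, minus strand) and chr6:134920151-134920400 (Cdkn1b, plus strand).
Mki67: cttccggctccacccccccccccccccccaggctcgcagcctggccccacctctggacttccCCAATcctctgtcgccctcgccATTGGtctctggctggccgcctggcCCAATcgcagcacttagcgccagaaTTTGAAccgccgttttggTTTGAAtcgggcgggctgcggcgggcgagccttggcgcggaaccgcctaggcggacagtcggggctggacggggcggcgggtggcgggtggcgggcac
Top2a: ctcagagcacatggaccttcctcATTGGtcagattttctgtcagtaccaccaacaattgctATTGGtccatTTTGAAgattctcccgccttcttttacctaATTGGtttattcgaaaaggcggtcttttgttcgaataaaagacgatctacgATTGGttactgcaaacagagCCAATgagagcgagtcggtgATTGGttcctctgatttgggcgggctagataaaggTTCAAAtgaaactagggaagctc
Ccnb2: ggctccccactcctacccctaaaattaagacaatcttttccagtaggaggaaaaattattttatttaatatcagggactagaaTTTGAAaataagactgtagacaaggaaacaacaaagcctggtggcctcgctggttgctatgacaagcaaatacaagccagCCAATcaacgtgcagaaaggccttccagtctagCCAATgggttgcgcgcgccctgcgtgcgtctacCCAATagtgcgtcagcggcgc
Cdkn1b: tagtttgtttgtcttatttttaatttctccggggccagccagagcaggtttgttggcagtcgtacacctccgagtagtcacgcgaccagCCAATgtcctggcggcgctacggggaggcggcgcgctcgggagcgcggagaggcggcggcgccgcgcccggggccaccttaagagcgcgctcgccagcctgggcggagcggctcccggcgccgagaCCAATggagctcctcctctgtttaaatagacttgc
Mki67 and Top2a held 2 TTTGAA each and Ccnb2 held 1. The Cdkn1b window held CCAAT 2 times and no TTTGAA. Of the 3 genes with TTTGAA, Mki67 and Ccnb2 had their highest group mean in wild-type memory cells, and Top2a in Dock2-deficient naive cells. Ccnb2 rested on 37 reads in all, and a link of these letters to the levels was not tested.

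The 10 genes spanned a wide range of levels. Levels were divided by the length of all annotated exons of a gene, so the ranking between genes is rough where the expressed transcript is shorter. Per kilobase of these exons, the mean level over 18 libraries was highest for Pcna at 48.5 ± 10.2 (SD). Next were Cdkn1b at 44.0 ± 17.8 and Ccnd2 at 36.0 ± 4.34, and these genes overlapped within their spread. Mcm3 followed at 14.1 ± 3.23 and Stmn1 at 6.92 ± 3.63. Tyms (2.47 ± 1.28), Rrm2 (1.65 ± 1.57), Ccnb2 (1.20 ± 1.78), Top2a (1.12 ± 0.851) and Mki67 (0.858 ± 1.05) were the lowest, again within each other's spread. The genes of G1, of the replication clamp and of its helicase were thus the abundant ones on this scale. Those of nucleotide synthesis and mitosis gave few reads: Mki67 gave 0 to 46 reads in a library and Ccnb2 0 to 12. Of the 10 genes, 8 passed the filter, a value of 10 or more in 4 or more libraries. Rrm2 (2 libraries at 10 or more) and Ccnb2 (1 library) did not, and their tests come from a fit without that filter over 16332 genes. Mki67 passed with 5 such libraries, 4 of them wild-type memory, the group in which it was high.

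Mki67 encodes Ki-67, the protein that coats mitotic chromosomes and marks cycling cells (ENSMUSG00000031004, chromosome 7, 135689784 to 135716361, minus strand, mm10). Wild-type naive libraries 1 to 4 held 5.51, 0, 1.397 and 0 normalized expected counts of it, and wild-type memory libraries 1 to 4 held 14.9, 13.9, 26.5 and 40.2. In Dock2-deficient cells it was 8.18, 14.9, 0.512, 2.41 and 0.996 in naive and 7.10, 2.47, 5.16, 8.51 and 2.65 in memory. Every wild-type memory library was above every wild-type naive library and above every Dock2-deficient memory library, while naive and memory overlapped in Dock2-deficient mice. The highest Dock2-deficient naive library (number 2) was as high as the lower wild-type memory libraries. That library also had the highest sums of erythroid (340, other libraries at most 54.3), myeloid (48.9), plasma cell (160) and CD4 T cell markers (28.0). The part of these cells in its Mki67 was not tested.

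In wild type, Mki67 rose from 1.73 ± 2.60 (SD, n = 4) in naive to 23.9 ± 12.3 (n = 4) in memory cells, a log2 fold change of 3.52 ± 0.78 (SE; 11.4-fold on the log2(value + 1) scale, limma over all tested genes, adjusted p = 0.0120). Because Mki67 passed the filter mainly through wild-type memory cells, the fit without the filter is given too: over 16332 genes its adjusted p was 0.0136. In the filtered contrast 1.88% of the 9437 tested genes were called higher, and in 4.99% the memory libraries all lay above the naive ones. Without wild-type naive library 2 the adjusted p was 0.0504, without wild-type memory library 4 it was 0.0544, and without both libraries that lay apart it was 0.0576, with log2 fold changes of 3.19 to 3.23. Markers of natural killer (NK) cells were also higher in wild-type memory than in wild-type naive cells. The sum of Ncr1, Tyrobp, Klrb1c and Klrb1f was 0 to 2.26 in wild-type naive and 24.5 to 35.9 in wild-type memory libraries. It was 0 to 4.76 in Dock2-deficient naive (median 0) and 1.78 to 17.4 in Dock2-deficient memory libraries (median 15.9). Mean Mki67 in these Dock2-deficient groups was 5.41 and 5.18. None of these 4 markers was at 0 in all libraries. The part of NK cells, or of CD8 T cells that carry these receptors, was not tested.

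**Figure D1:**
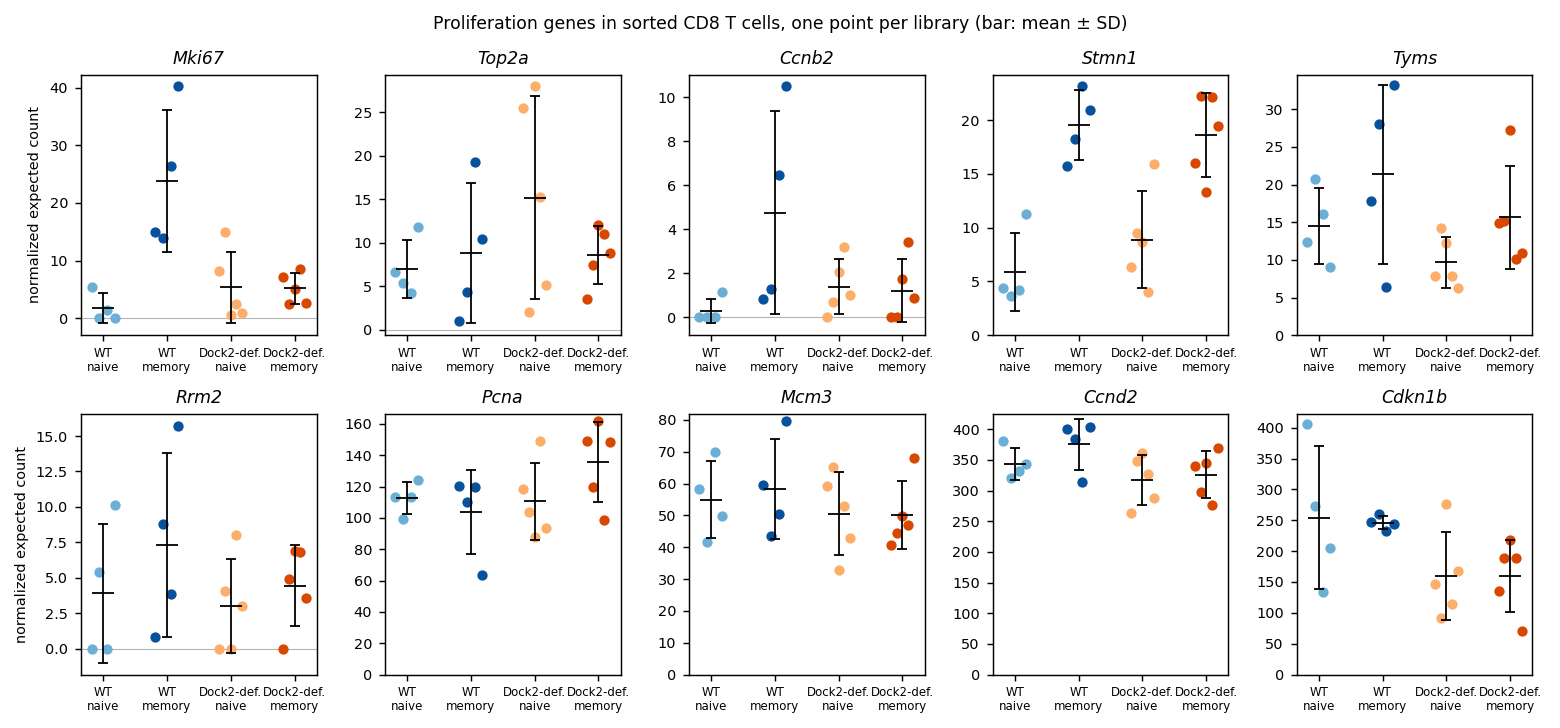
Normalized expected count (vertical axis, linear, own scale for each gene) of the 10 genes in each of the 18 libraries, by group; a point is a library, and the bar is the mean with its SD over 4 wild-type or 5 Dock2-deficient libraries. Mki67 lies at 13.9 to 40.2 in wild-type memory cells and at most 14.9 in every other group, Stmn1 is higher in both memory groups than in wild-type naive cells, and Ccnd2 lies between 264 and 404 throughout.

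Top2a, the topoisomerase that untangles and condenses chromosomes in G2 and mitosis (chromosome 11, 98992943 to 99024189, minus strand), did not follow Mki67. Its value was 6.61, 5.42, 4.19 and 11.8 in naive and 0.978, 4.41, 19.3 and 10.5 in memory libraries of wild type, and 25.5, 2.04, 28.0, 15.2 and 5.12 in naive and 3.55, 7.41, 12.03, 11.1 and 8.85 in memory libraries of Dock2-deficient mice. The groups overlapped in every comparison, and the highest values were those of Dock2-deficient naive libraries 1 and 3. The log2 fold change of memory against naive in wild type was -0.09 ± 0.73 (SE, limma, adjusted p = 0.982), an estimate whose 95% interval runs from -1.62 to 1.43 and which turned to 0.52 without wild-type memory library 1. Over the 18 libraries the Pearson r of Mki67 and Top2a on log2(value + 1) was -0.15, given as a description.

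Ccnb2 encodes cyclin B2, a partner of the mitotic kinase Cdk1 (chromosome 9, 70407692 to 70421547, minus strand). It was 0, 0, 0 and 1.13 in wild-type naive and 0.83, 1.26, 6.45 and 10.5 in wild-type memory libraries. In Dock2-deficient mice it was 0, 0.679, 2.05, 3.21 and 0.996 in naive and 0, 0, 1.72, 3.41 and 0.885 in memory libraries. Wild-type memory libraries 3 and 4 stood above all others, while the other 2 lay among the rest. These values rest on 37 reads in all, 1 in wild-type naive and 20 in wild-type memory cells, whose ratio after scaling was 16.8 with a 95% interval of 2.69 to 698 (exact, counting error only). The difference did not pass the test (log2 fold change 1.84 ± 0.64, SE, limma fit without the filter, adjusted p = 0.217), where 1.58% of 16332 genes were called. The pseudogene Ccnb2-ps, whose reads an estimate may exchange with those of Ccnb2, was at 14.9 in wild-type naive library 1, where Ccnb2 was listed at 0. With the pseudogene added, the log2 fold change was 0.68 (adjusted p = 0.864, an alternative chosen after seeing the data).

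Stmn1 encodes stathmin, which destabilises microtubules until it is phosphorylated in mitosis (chromosome 4, 134468320 to 134473843, plus strand). It was 4.40, 3.62, 4.19 and 11.3 in wild-type naive and 15.8, 18.3, 23.2 and 21.0 in wild-type memory libraries. In Dock2-deficient mice it was 6.36, 9.51, 8.70, 4.01 and 15.9 in naive and 16.0, 22.2, 13.4, 22.1 and 19.5 in memory libraries. The wild-type groups did not overlap. The Dock2-deficient groups overlapped through naive library 5 and memory library 3.

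Stmn1 rose in wild-type memory cells from 5.88 ± 3.63 to 19.5 ± 3.24 (SD, n = 4 each), with a log2 fold change of 1.69 ± 0.42 (SE, 3.22-fold, limma, adjusted p = 0.0308). This call was lost without wild-type naive library 1, 2 or 3 or memory library 2, 3 or 4, left out singly (adjusted p up to 0.105). It was also lost without the filter on low values (0.0647), with totals equalised without the ribosomal RNA gene (0.0708), with only the 8 wild-type libraries in the fit (0.117), with a replicate block as fixed effects (0.0839) and without both libraries that lay apart (0.0913). In Dock2-deficient mice the means were 8.90 ± 4.48 and 18.6 ± 3.90 (SD, n = 5 each), with a log2 fold change of 1.08 ± 0.38 (SE, limma, adjusted p = 0.173), which did not pass. The difference between the genotypes' fold changes was -0.61 ± 0.56 (SE, limma, adjusted p = 0.843), and -0.93 to -0.39 with single libraries left out.

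Of the 8 tested genes, 2 were called in wild-type memory against naive cells, Mki67 and Stmn1, and both were higher, beside 2.52% of all tested genes called in either direction and 1.88% called higher. Without the filter 1 member, Mki67, was called. In Dock2-deficient mice 0 of 8 were called, where 2.82% of all tested genes were (limma; 1260 of 9437 genes at an unadjusted p under 0.05), with adjusted p from 0.173 to 0.998. The median log2 fold change of all 10 was 0.25 in wild type and 0.17 in Dock2-deficient mice, beside -0.02 and -0.01 over all tested genes. In both genotypes 8 of 10 were above 0, beside 47.9% of all tested genes in wild type and 49.3% in Dock2-deficient mice. Some of these lay near 0, such as Mcm3 (0.0017) and Cdkn1b (0.0090) in Dock2-deficient mice. The members were chosen with earlier results of these data known, and Mki67 was tested mainly through wild-type memory libraries. The member counts are therefore not an independent comparison with all genes.

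**Figure D2:**
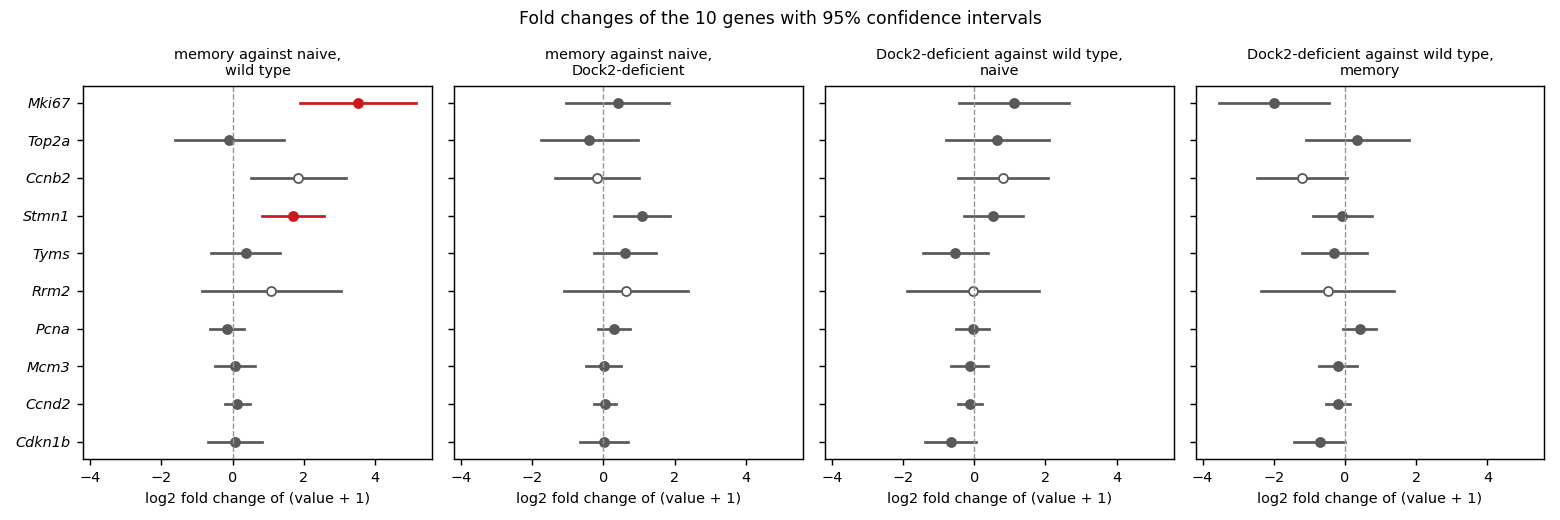
Log2 fold change of value + 1 (horizontal axis) of the 10 genes (rows) in 4 comparisons, with 95% confidence intervals from limma; red points passed an adjusted p of 0.05, and open points are the 2 genes under the filter, Rrm2 and Ccnb2. Only Mki67 (3.52) and Stmn1 (1.69) in wild-type memory against naive cells are red.

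**Figure D3:**
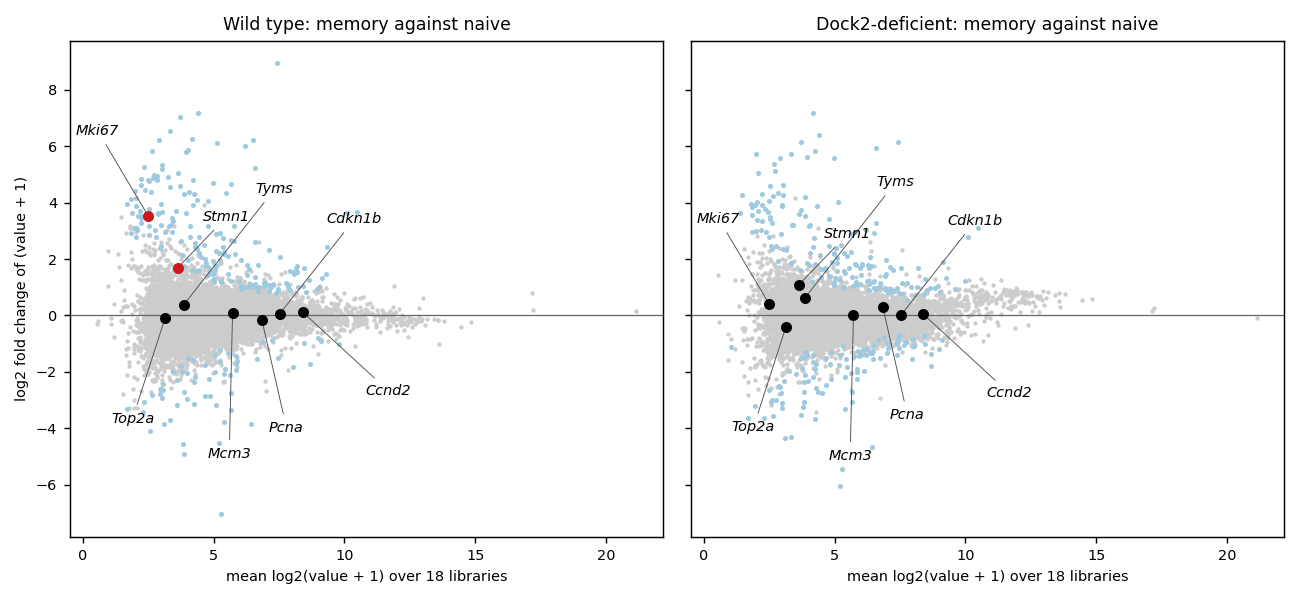
Log2 fold change of memory against naive cells (vertical axis) against the mean log2(value + 1) over 18 libraries (horizontal axis) for the 9437 tested genes, in wild type (left) and in Dock2-deficient mice (right); blue points passed an adjusted p of 0.05, and the 8 tested members are drawn large, red where they passed. In the right panel Mki67 lies at 0.40, within the grey cloud.

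None of the 4 S phase members passed the test between memory and naive cells in either genotype. Tyms, thymidylate synthase (chromosome 5, 30058202 to 30073617, minus strand), was 9.03 to 20.7 in wild-type naive, 6.45 to 33.3 in wild-type memory, 6.26 to 14.3 in Dock2-deficient naive and 10.1 to 27.2 in Dock2-deficient memory libraries. Its log2 fold changes of memory against naive were 0.37 ± 0.46 in wild type (SE, limma, adjusted p = 0.847) and 0.61 ± 0.42 in Dock2-deficient mice (adjusted p = 0.567). In wild type it was 0.10 without memory library 4 and 0.83 without memory library 3, and in Dock2-deficient mice 0.40 without memory library 3. Rrm2, the small subunit of ribonucleotide reductase (chromosome 12, 24708241 to 24714146, plus strand), was at 0 in 5 libraries and reached 15.7 in wild-type memory library 4. Its wild-type means were 3.90 ± 4.90 and 7.31 ± 6.51 (SD, n = 4), a log2 difference of 1.09 ± 0.94 (SE, limma fit without the filter, adjusted p = 0.765), which was 1.73 without wild-type naive library 4 and 1.67 without wild-type memory library 1.

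Pcna and Mcm3 were read at higher levels. Pcna, the sliding clamp of DNA polymerase that also serves in repair (chromosome 2, 132249162 to 132253314, minus strand), was 113 ± 10.1 in wild-type naive, 104 ± 27.0 in wild-type memory, 111 ± 24.4 in Dock2-deficient naive and 136 ± 25.7 in Dock2-deficient memory cells (SD, n = 4, 4, 5 and 5). Wild-type memory library 4, which had the highest Mki67, had the lowest Pcna at 63.8, against 110 to 121 in the other 3. The wild-type log2 fold change was -0.16 ± 0.24 (SE, limma, adjusted p = 0.877) and its sign turned without that library (0.06). Mcm3, a subunit of the helicase that opens DNA at origins and is loaded in G1 (chromosome 1, 20802968 to 20820312, minus strand), was 54.9 ± 12.1, 58.2 ± 15.7, 50.6 ± 12.9 and 50.01 ± 10.6 in the same order. Its wild-type log2 fold change of 0.07 ± 0.27 (SE, limma, adjusted p = 0.957) has a 95% interval from -0.48 to 0.63 and took the other sign without wild-type memory library 4 (-0.09).

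Ccnd2 and Cdkn1b stand at the entry to the cycle. Ccnd2 encodes cyclin D2, a D-type cyclin that activates Cdk4 and Cdk6 (chromosome 6, 127125162 to 127152193, minus strand). It was the steadiest of the 10, with a coefficient of variation of 12.1% over all 18 libraries against 21.1% to 148% for the others. Its means were 344 ± 26.1 in wild-type naive, 375 ± 42.0 in wild-type memory, 318 ± 41.0 in Dock2-deficient naive and 326 ± 38.0 in Dock2-deficient memory cells (SD, n = 4, 4, 5 and 5). The wild-type log2 fold change was 0.12 ± 0.17 (SE, limma, adjusted p = 0.865), with a 95% interval from -0.23 to 0.48. Ccnd2 overlaps 9330179D12Rik (at most 4.96) and Gm43126 (at most 8.90), and since the library method does not mark strand their reads cannot be told apart from its own.

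Cdkn1b encodes p27, the inhibitor of cyclin-dependent kinases that accumulates in resting cells (chromosome 6, 134920401 to 134925513, plus strand). It was 406, 273, 134 and 204 in wild-type naive libraries and 248, 259, 233 and 245 in wild-type memory libraries. In Dock2-deficient mice it was 147, 91.7, 277, 115 and 168 in naive and 135, 189, 218, 188 and 70.8 in memory libraries. The wild-type naive libraries spread widely while the memory libraries lay close together, at 254 ± 116 against 246 ± 10.7 (SD, n = 4). The log2 fold change in wild type was 0.07 ± 0.36 (SE, limma, adjusted p = 0.970), and leaving out single libraries gave -0.20 (without wild-type naive library 3) to 0.33 (without library 1).

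Between genotypes, 0 of the 8 tested members were called in naive cells, where 0.138% of all tested genes were, and 0 of 8 in memory cells, where 0.053% were (limma; 576 and 1546 of 9437 genes at an unadjusted p under 0.05). Among the 8, the largest differences in memory cells were those of Mki67 and Cdkn1b. Mki67 was 2.47 to 8.51 in Dock2-deficient and 13.9 to 40.2 in wild-type memory libraries, a log2 fold change of -1.997 ± 0.74 (SE, limma, adjusted p = 0.254). Cdkn1b was 70.8 to 218 against 233 to 259, a log2 fold change of -0.72 ± 0.34 (adjusted p = 0.304). It was -0.45 without Dock2-deficient memory library 5, which had the lowest value and was among the 2 that lay apart. These were the 2 members whose memory groups did not overlap, both lower in Dock2-deficient mice, as were 2.38% of all tested genes. For the choice of members and the filter on Mki67, this count is not an independent comparison with that share either. The marker of cycling cells and the inhibitor thus lay below wild type in the same group, and neither passed the test over all genes.

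In memory cells Pcna had a log2 fold change of 0.41 ± 0.22 (SE, limma, adjusted p = 0.360) and Ccnb2 of -1.22 ± 0.61 (fit without the filter, adjusted p = 0.406, where 0.0735% of 16332 genes were called). With single libraries left out, Pcna ran from 0.19 (without wild-type memory library 4) to 0.51 (without Dock2-deficient memory library 4), and Ccnb2 from -1.63 (without wild-type memory library 1) to -0.75 (without wild-type memory library 4). In naive cells, Mki67 had a log2 fold change of 1.12 ± 0.74 (SE, limma, adjusted p = 0.929) and Cdkn1b of -0.66 ± 0.34 (adjusted p = 0.855). Mki67 ran from 0.65 (without Dock2-deficient naive library 2) to 1.69 (without wild-type naive library 1), and Cdkn1b from -0.93 (without wild-type naive library 3) to -0.40 (without wild-type naive library 1). In both cell states Cdkn1b had about the same mean in Dock2-deficient mice, 160 ± 71.9 (SD, n = 5) for naive and 160 ± 58.3 (SD, n = 5) for memory.

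The fold change of Mki67 between memory and naive cells was 3.52 in wild type and 0.40 ± 0.70 (SE, adjusted p = 0.860) in Dock2-deficient mice, where it ran from 0.02 (without naive library 3) to 0.87 (without naive library 2). The difference between them, the interaction term, was -3.12 ± 1.04 (SE, limma, unadjusted p = 0.00719, adjusted p = 0.819) and did not pass over all tested genes, of which 0.0318% did (492 of 9437 at an unadjusted p under 0.05). For Ccnb2 the interaction was -2.03 ± 0.86 (SE, fit without the filter, adjusted p = 0.862), from a log2 fold change of 1.84 in wild type and -0.19 ± 0.57 (adjusted p = 0.945) in Dock2-deficient mice. None of the 8 tested members passed this test, with adjusted p from 0.819 to 0.986. The wild-type rise of Mki67 is thus not shown to differ from the change in Dock2-deficient mice by the test over all genes.

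The other genes of the same processes were read from lists of the cell cycle. Of 40 genes of G2 and mitosis, 39 were found in the table and 12 passed the filter. The 27 under the filter included 16 that stayed below 10 in every library, and their summed level was 34.0 to 61.3 in wild-type naive, 54.6 to 70.0 in wild-type memory, 32.5 to 131 in Dock2-deficient naive and 21.3 to 57.8 in Dock2-deficient memory libraries. Between 19 and 32 of the 39 genes were above 0 in a library, with 25 to 28, 23 to 30, 24 to 32 and 19 to 29 in the groups in that order. The groups overlapped on both measures. Of the 12, 3 were called higher in wild-type memory cells, Mki67, Stmn1 and H2afz, and 1 of 12, H2afz, in Dock2-deficient memory cells, beside 1.88% and 1.77% of all tested genes called higher. Mki67 was among the 12 mainly through wild-type memory libraries, the group in which it was called. The list was chosen with earlier results of these data known, so its counts are not an independent comparison with all genes. The median log2 fold change of the 12 was 0.12 and -0.07 in these comparisons, and 0 of 12 were called lower.

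H2afz, which encodes the histone variant H2A.Z found at promoters of many genes and in resting cells too, was the only gene of the list called in both genotypes. It rose from 285 ± 62.2 to 710 ± 110 in wild type (SD, n = 4; log2 fold change 1.33 ± 0.30, SE, limma, adjusted p = 0.0145). Leaving out wild-type naive library 1 (0.0570) or wild-type memory library 3 (0.0577) took that adjusted p past the threshold. In Dock2-deficient mice it rose from 355 ± 82.7 to 1417 ± 706 (SD, n = 5; log2 fold change 1.88 ± 0.27, SE, limma, adjusted p = 0.000128), with the highest memory library at 2489 and the lowest at 695, and every naive library at 479 or less. Reads that fit near-identical copies of a histone gene are shared out as estimates, so its level is uncertain.

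**Figure D4:**
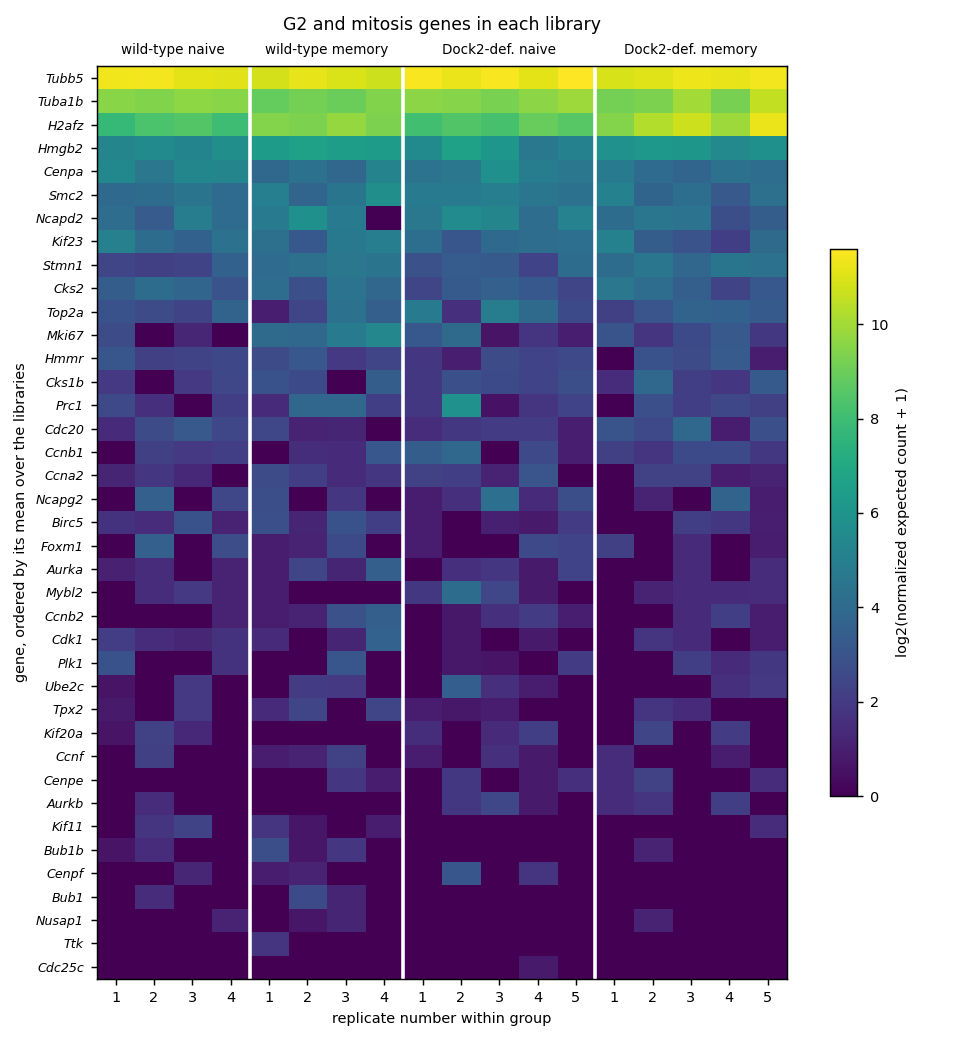
Log2(value + 1) (colour) of the 39 genes of G2 and mitosis found in the table (rows, ordered by mean level) in the 18 libraries (columns, by group and replicate number; white lines part the groups). H2afz, Stmn1 and Mki67 are brighter in the wild-type memory columns than in the wild-type naive ones, while the lower rows are near 0 in all groups.

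The S phase and DNA replication list (30 genes, 25 tested) had 0 genes called in either direction in all 5 comparisons, with medians of 0.20 in wild type and 0.15 in Dock2-deficient mice for memory against naive. The nucleotide synthesis list (16 genes, 13 tested) also had 0 called, with medians of -0.08 and 0.21. The list of G1 cyclins, kinases and E2F factors (24 genes, 15 tested) had 0 called, with medians of 0.05 and 0.04. Most of these genes were read in every library, as 24 of the 30 S phase genes and 14 of the 16 nucleotide genes were above 0 in all 18. With 2.52% of all tested genes called in wild type and 2.82% in Dock2-deficient mice, counts of 0 among 13 to 25 genes lie near these shares, and the lists were not compared by a test.

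Among 27 cell cycle inhibitors and genes of quiescence (21 tested), 1 was called in wild type, and it was lower, as were 0.646% of all tested genes. With 2.52% called in either direction, a count of 1 among 21 is near that share. Foxo1, a transcription factor that keeps naive T cells quiescent, fell from 151 ± 20.3 to 82.0 ± 29.5 (SD, n = 4; log2 fold change -0.93 ± 0.24, SE, limma, adjusted p = 0.0431). The call was lost when any of the 4 wild-type naive libraries, or memory library 1, 3 or 4, was left out (adjusted p up to 0.164), and without the filter on low values (0.0554), without a variance trend (0.0730), with totals equalised without the ribosomal RNA gene (0.128), with only the wild-type libraries in the fit (0.129), with a replicate block as fixed effects (0.0750) and without both libraries that lay apart (0.131). In Dock2-deficient mice Foxo1 was 159 ± 28.0 in naive and 106 ± 18.2 in memory cells (SD, n = 5), and 0 of 21 genes were called. The list's medians were -0.10 in wild type and -0.26 in Dock2-deficient mice. In the genotype comparisons and the interaction 0 genes of any of the 5 lists were called.

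Across the 18 libraries the 10 genes did not vary as a block. Over their 45 pairs the Pearson r on log2(value + 1) ran from -0.38 to 0.60 with a median of 0.08, and from -0.62 to 0.59 with a median of -0.02 once the group means were removed. Only 2 pairs had an r of 0.5 or more: Tyms with Ccnd2 (0.60) and Rrm2 with Ccnb2 (0.58). Mki67 and Ccnb2 had an r of 0.46 over all libraries and -0.01 within groups. These are descriptions over libraries that share depth and group, in which counting error is large for the low genes.

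The tested genes most like Mki67 over the 18 libraries, by Pearson r on log2(value + 1), were Fut8 (0.84), Myadm (0.81), Vps9d1 (0.80), S100a4 (0.79) and Sh3bp2 (0.79). None of them is in the 5 cell cycle lists, but only tested genes were ranked. Of the 39 G2 and mitosis genes in the table, 27 were under the filter and could not appear. Group means were left in, so a shared difference between groups raises r. Whether Mki67 followed other cell cycle genes cannot be read from this ranking. The tested genes most like Cdkn1b were Rbm15 (0.89), Avl9 (0.87), Mib1 (0.86), Ice1 (0.85) and Arid1b (0.85). For Ccnd2 they were Thoc1 (0.80), Smyd3 (0.73), Pigu (0.71), Rusc1 (0.70) and B130055M24Rik (0.70). These are the highest of 9437 genes and were chosen for their likeness.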

How the data were processed

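Smartseq2 libraries, which do not mark strand, were made from RNA taken up with a Qiagen kit, per the labels' protocols. The submitters' processing notes name bcl2fastq, FastQC, RSEM and the build mm10. Versions and annotation are not given in the sources used here. What the authors deposited is a normalized signal: RSEM expected counts scaled by the authors between libraries. All values (100%) lay on a grid of 0.01 reads, and 59.5% to 69.3% were whole reads within 0.005, so count models were not run.

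Values were tested as log2(value + 1), which understates the change of low genes, with limma 3.58.1 in R 4.3.3: 1 mean per group, 18 libraries in 1 fit, a trended prior variance, 14 residual and 6.43 prior degrees of freedom, two-sided tests, Benjamini-Hochberg adjustment over 9437 genes that reached 10 in 4 or more libraries, and a threshold of 0.05. Members under this filter were fitted among 16332 genes above 0 in at least 4 libraries. The fit was tested on simulated data. Fold changes were planted there only in genes with higher mean levels than Mki67 and Stmn1, so the calls of these genes were not covered. Groups were taken from the sample titles. The gene positions are those of GENCODE M21, and promoters those of RefSeq. Plots used Python 3.11.15 and matplotlib 3.10.9.

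The members and lists were chosen with earlier results of these data known. Named are the 10 members, the list genes called in any comparison, and the 5 tested genes most like Mki67, Ccnd2 and Cdkn1b. Alternatives were 2 pseudocounts, 2 filters, 2 scalings, 2 variance settings, fewer libraries and a replicate block.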

Additional observations from a re-analysis of the deposited data

Results flagged for a closer look

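In 2 of the 40 combinations of a member and a group, 1 library lay far from the others of its group by Dixon's test at the 95% level, and chance flags about 1 in 20. Stmn1 was 11.3 in wild-type naive library 4, against 3.62 to 4.40 in the other 3. Ccnb2 was 1.13 in the same library, which is 1 read, against 0 in the other 3. Any value above 0 would have been flagged there, so the chance rate does not hold for this flag.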

How the results depend on the processing

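The number of members called in wild-type memory against naive cells was 2 and moved with the processing. It was 1 without the filter on low values, 1 with a filter of at least 10 in at least 9 libraries (Mki67 was then not tested), 1 with totals equalised without the ribosomal RNA gene, 1 when the fit held only the wild-type libraries, 1 with the replicate block as fixed effects, and 0 without the 2 libraries that lay apart (number 4 of wild-type memory, number 5 of Dock2-deficient memory). Leaving out single replicates gave 0 to 2, with 0 without wild-type naive library 2 or memory library 4. The count was 0 in the other 4 comparisons under every alternative run.

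Of the 545 recomputed values of 26 fold changes, 500 kept direction and side of the threshold, 29 lost the call and 16 took the other sign, in 5 fold changes, all with an adjusted p of 0.846 or more. In wild-type memory against naive cells, Top2a was 0.046 with a pseudocount of 5 and -0.60 to 0.52 with single replicates left out. Pcna was 0.018 with array weights, 0.057 without both libraries that lay apart, and -0.245 to 0.057 with single replicates left out. Mcm3 was -0.0041 with equal upper quartiles, -0.086 without both libraries and -0.086 to 0.20 with replicates left out. Cdkn1b was -0.011 with equal upper quartiles and -0.20 to 0.33 with replicates left out. Ccnb2 in Dock2-deficient memory against naive cells was -0.496 to 0.061 with replicates left out. The cause was not tested.

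Libraries of a genotype share replicate numbers, which the labels do not explain. Deviations of same-numbered naive and memory libraries correlated at -0.25 to 0.30, over 0.1 in 3 of 9 pairs, and 4 of 9 libraries correlated best with their own number. With so few libraries this does not settle whether the numbers mark pairs. The main fit did not use them as pairs. With the replicate block as a consensus correlation 2 members were called, and with fixed effects 1. With totals equalised without the ribosomal RNA gene, the median log2 fold change of all genes was as low as -0.32 (memory against naive, Dock2-deficient). In the main fit that median was -0.01. For Mki67, Rrm2 and Ccnb2, libraries with 0 to 46 reads limit what can be seen.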
